A study of Mus musculus with 11 samples.

Results

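The 4 Hox clusters were examined in CUT&RUN peak lists for a Myc-tagged retinoic acid receptor α (RARα), which pairs with RXR receptors on DNA. The members were all 39 mouse Hox genes, chosen by symbol from 21887 protein-coding genes on 21 chromosomes. Each cluster window ran from the first to the last Hox gene plus 50 kb on both sides. Peaks touching the 4 windows numbered 21 of 86446, 4 of 11869 and 9 of 30273 in control replicates 1, 2 and 3. In Foxc1 mutant replicates 1, 2 and 3 they numbered 25 of 54112, 93 of 410562 and 132 of 513290.

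CUT&RUN cuts and releases DNA beside an antibody-bound protein, here with an antibody to the Myc tag. The cells came from mouse cortex at embryonic day 14 and were pulled down on magnetic beads by Prom1, a surface protein of neural progenitors. The control group (3 libraries) and the Foxc1 mutant group (3 libraries) shared the tag, the tissue, the bead separation and 0.05% digitonin to open the cells. Foxc1 is a transcription factor needed to form the meninges, a tissue that makes retinoic acid, and the study's title names meningeal retinoic acid as its subject. The sources used here do not give the Foxc1 allele, the way the tagged receptor was expressed, the strain, or whether replicates came from separate embryos or litters. The p-values below therefore measure only the spread between libraries, which may be technical. The 5 isotype libraries were not analysed here, so a peak listed below was not set against its level with a nonspecific antibody.

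Hox genes encode homeodomain transcription factors that give cells their position along the body from hindbrain to tail. They lie in the order in which they act: paralog groups 1 to 4, at the 3′ side of each cluster, act in the hindbrain, and groups 9 to 13, at the 5′ side, act toward the tail. The 3′ genes respond to retinoic acid early and directly, through response elements that RAR and RXR bind beside genes such as Hoxb1, Hoxa4, Hoxb4, Hoxd4 and Hoxb5. These elements are direct repeats of a half-site resembling AGGTCA. In the forebrain, including the cortex, Hox genes are normally silent and covered by Polycomb chromatin.

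The windows lie, in mm10, at chr6:52105367-52310880 for Hoxa (11 genes), chr11:96144316-96418254 for Hoxb (10 genes), chr15:102871131-103086856 for Hoxc (9 genes) and chr2:74618225-74815142 for Hoxd (9 genes). Hoxa is transcribed on the minus strand and the others on the plus strand. The windows together spanned 892 kb, of which 492 kb lay between first and last genes. The other protein-coding genes in them were Evx2, a homeobox gene beside Hoxd13, and Ttll6, a tubulin-modifying enzyme gene beside Hoxb13.

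The clusters also hold miRNA genes of 2 families that are known to act on Hox transcripts. Their mature 5p sequences are shown because members from different clusters share a seed, bases 2 to 8, given in capitals:
miR-10a-5p (Hoxb cluster): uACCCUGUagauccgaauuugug
miR-10b-5p (Hoxd cluster): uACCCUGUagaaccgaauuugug
miR-196a-5p (Hoxb and Hoxc clusters): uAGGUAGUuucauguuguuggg
miR-196b-5p (Hoxa cluster): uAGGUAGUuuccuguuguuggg
The sequences come from RefSeq on GRCm38.p6. The seed ACCCUGU is common to the miR-10 pair and AGGUAGU to the miR-196 members. Mir10a (chr11:96317186-96317208, just 5′ of Hoxb4) and Mir10b (chr2:74726074-74726096, inside Hoxd4) had no peak over them or within 1 kb in any of the 6 lists. The same held for Mir196a-1 (chr11:96265187-96265208).

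Promoter sequence was available for 22 of the 39 genes, as 24 RefSeq windows from 250 bases before to 50 bases after a start. A peak touched 1 of these 24 windows in control replicate 1 (Hoxa2), 1 in mutant replicate 2 (Hoxd4) and 4 in mutant replicate 3 (Hoxa6, Hoxa9, Hoxa11 and Hoxb1), and none in the other 3 lists. The 250 bases before the start are shown for Hoxa2, Hoxb1 and Hoxd4, the anterior genes among these 6. Capitals mark half-sites on either strand, which were AGGTCA, its variants with AGTTCA or with GGGTCA, and the variant GGTTCA:
Hoxa2 (chr6:52164832-52165081, minus strand): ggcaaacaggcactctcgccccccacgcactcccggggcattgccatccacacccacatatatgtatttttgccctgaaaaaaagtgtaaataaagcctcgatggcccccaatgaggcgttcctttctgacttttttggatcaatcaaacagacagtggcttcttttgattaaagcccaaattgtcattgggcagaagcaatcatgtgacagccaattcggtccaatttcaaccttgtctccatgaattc
Hoxb1 (chr11:96365508-96365757, plus strand): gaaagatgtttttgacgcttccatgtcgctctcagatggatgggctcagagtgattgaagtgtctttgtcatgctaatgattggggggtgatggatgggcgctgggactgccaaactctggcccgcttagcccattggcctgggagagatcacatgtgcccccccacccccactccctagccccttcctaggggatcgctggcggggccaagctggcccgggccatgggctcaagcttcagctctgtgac
Hoxd4 (chr2:74721728-74721977, plus strand): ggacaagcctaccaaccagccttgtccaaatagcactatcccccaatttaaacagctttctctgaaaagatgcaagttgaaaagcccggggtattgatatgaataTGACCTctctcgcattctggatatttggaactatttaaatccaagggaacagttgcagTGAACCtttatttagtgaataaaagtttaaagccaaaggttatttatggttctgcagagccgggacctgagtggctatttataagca
Hoxd4 has 2 half-sites, both on the other strand, where the first reads AGGTCA and the second GGTTCA, while the Hoxa2 and Hoxb1 sequences have none. AGGTCA on either strand occurred in 7 of the 24 Hox windows (29.2%) and in 14.7% of all 21263 RefSeq promoter windows. Any of the half-sites marked occurred in 11 of 24 Hox windows (45.8%) and in 41.2% of all windows, so with the wider set the shares were closer. Direct repeats of these half-sites with a spacing of 1, 2 or 5 bases occurred in 0 of 24 Hox windows. They occurred in 0.183%, 0.0894% and 0.0800% of all windows. A match is only a description of these letters, and the distal elements 3′ of Hoxb1 lie outside these windows.

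Across the 4 windows, Hox sequence held more peaks than its library's density gives in mutant replicate 1, and about as many in control replicate 2. It held fewer in control replicates 1 and 3 and mutant replicates 2 and 3. By peak midpoint, control replicates 1, 2 and 3 had 21, 4 and 9 peaks, where 29.0, 3.98 and 10.1 would be expected from each library's own peaks per Mb. The mutant replicates had 25, 92 and 132 peaks, where 18.1, 138 and 172 would be expected. The ratios to the library's own density were 0.725, 1.01 and 0.887 in the controls and 1.38, 0.669 and 0.767 in the mutants. Mutant replicate 1 was the highest and mutant replicates 2 and 3 were among the 3 lowest, so the groups overlapped.

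The control ratio was 0.872 ± 0.141 and the mutant ratio 0.938 ± 0.384 (SD, n = 3 each), a difference of 0.0657 (two-sided exact permutation p = 0.9, adjusted p = 0.9 over 4 window tests, smallest possible p = 0.1). The direction of this difference turned when the flanks were left out (-0.313), without control replicate 1 (-0.0082) and without mutant replicate 1 (-0.155), and it grew to 0.838 with lists cut to 11869 peaks by max signal. Against all sequence, the ratio minus 1 averaged -0.0948 over the 6 libraries and was positive in 2 of 6 (two-sided exact sign-flip permutation p = 0.4375, adjusted p = 0.9). The share of the windows lying under peaks, relative to the library's genome-wide share, was 0.708, 0.949 and 0.677 in the controls and 1.30, 0.598 and 0.725 in the mutants. The mutant group exceeded the control group by 0.0959 (two-sided exact permutation p = 0.8, adjusted p = 0.9). This direction too turned without flanks (-0.175) and without mutant replicate 1 (-0.117), and the difference was 0.701 with the lists cut by max signal.

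The lists differed greatly in length, from 4.46 to 32.5 peaks per Mb in the controls and from 20.3 to 193 in the mutants, and their read depth is unknown. Peaks covered between 0.148% (control replicate 2) and 15.7% (mutant replicate 3) of the sequence. Control replicate 1 stands apart by its wide peaks, with a median of 2326.5 bases against 260 to 737 in the other 5 lists. The longest 2 lists had the most peaks over Hox loci and the shortest had the fewest, so counts below are read against the same library.

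**Figure D1:**
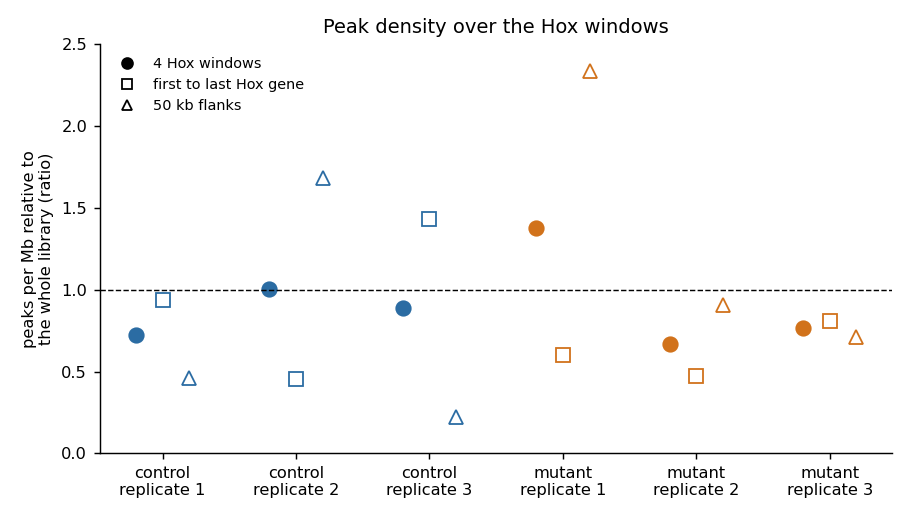
Peaks per Mb over the 4 Hox windows (filled circles), between first and last Hox genes (open squares) and in the 50 kb flanks (open triangles), each divided by the peaks per Mb of the same library. Points stand for single libraries, control in blue and mutant in orange, and the dashed line marks the library's own density; the flanks of mutant replicate 1 are highest (2.34), while its gene-bearing sequence is at 0.600.

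The median height of Hox peaks equalled that of their list in 5 libraries and was above it in control replicate 2. Height was counted in steps, the smallest unit of max signal in a library, since the scaling of the deposited signal is not stated. The median Hox peak was 10, 2.5 and 2 steps high in the controls and 4, 4 and 4 in the mutants, and the library medians were 10, 2 and 2 and 4, 4 and 4. The tallest Hox peaks had 15, 3 and 2 steps in the controls and 7, 9 and 10 in the mutants. Ranked by total signal, the share of Hox peaks in the top 10% of their list was 9.52%, 0% and 0% in the controls and 16%, 5.38% and 10.6% in the mutants. The peaks of highest rank lay outside the genes: an Hoxd flank peak at chr2:74642376-74643285 in mutant replicate 3 (percentile 98.2), before the Hoxd13 start, and an Hoxc flank peak at chr15:103078737-103083163 in control replicate 1 (percentile 97.8).

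Among single clusters, Hoxd had few peaks in several lists. It held 2, 1 and 2 peaks in the controls and 1, 17 and 33 in the mutants, against medians of 6, 1, 2, 4, 31 and 39 over all 13494 tiles of the genome of the same width, placed end to end. Its count was as low in 11.6% of tiles in control replicate 1, 13.2% in mutant replicate 1 and 8.79% in mutant replicate 2. In control replicates 2 and 3 it stood at the tile median.

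Hoxa held 6, 1 and 2 peaks in the controls and 7, 19 and 34 in the mutants, with tile medians of 7, 1, 2, 4, 33 and 41. Hoxb held 6, 1 and 4 in the controls and 9, 26 and 36 in the mutants, with tile medians of 9, 1, 3, 5, 44 and 55. Hoxc held 7, 1 and 1 in the controls and 8, 30 and 29 in the mutants, with tile medians of 7, 1, 2, 4, 34 and 43. In mutant replicate 1 these 3 clusters were above the median, at counts reached by 15.5%, 14.1% and 9.72% of tiles. In mutant replicate 2 all 4 clusters were below it, and counts as low were found in 10.2% of tiles for Hoxa, 9.68% for Hoxb and 34.3% for Hoxc. Tiles with 8 or more genes had lower medians in mutant replicate 2, at 29, 39, 30 and 28 for the widths of Hoxa, Hoxb, Hoxc and Hoxd. They were also lower in mutant replicate 3, at 33, 43, 35 and 32 in the same order. There Hoxa (34) and Hoxd (33) lay above these medians, and Hoxb (36) and Hoxc (29) below them. In control replicate 1 the medians of such tiles were higher than over all tiles, at 8, 10, 8 and 8.

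**Figure D2:**
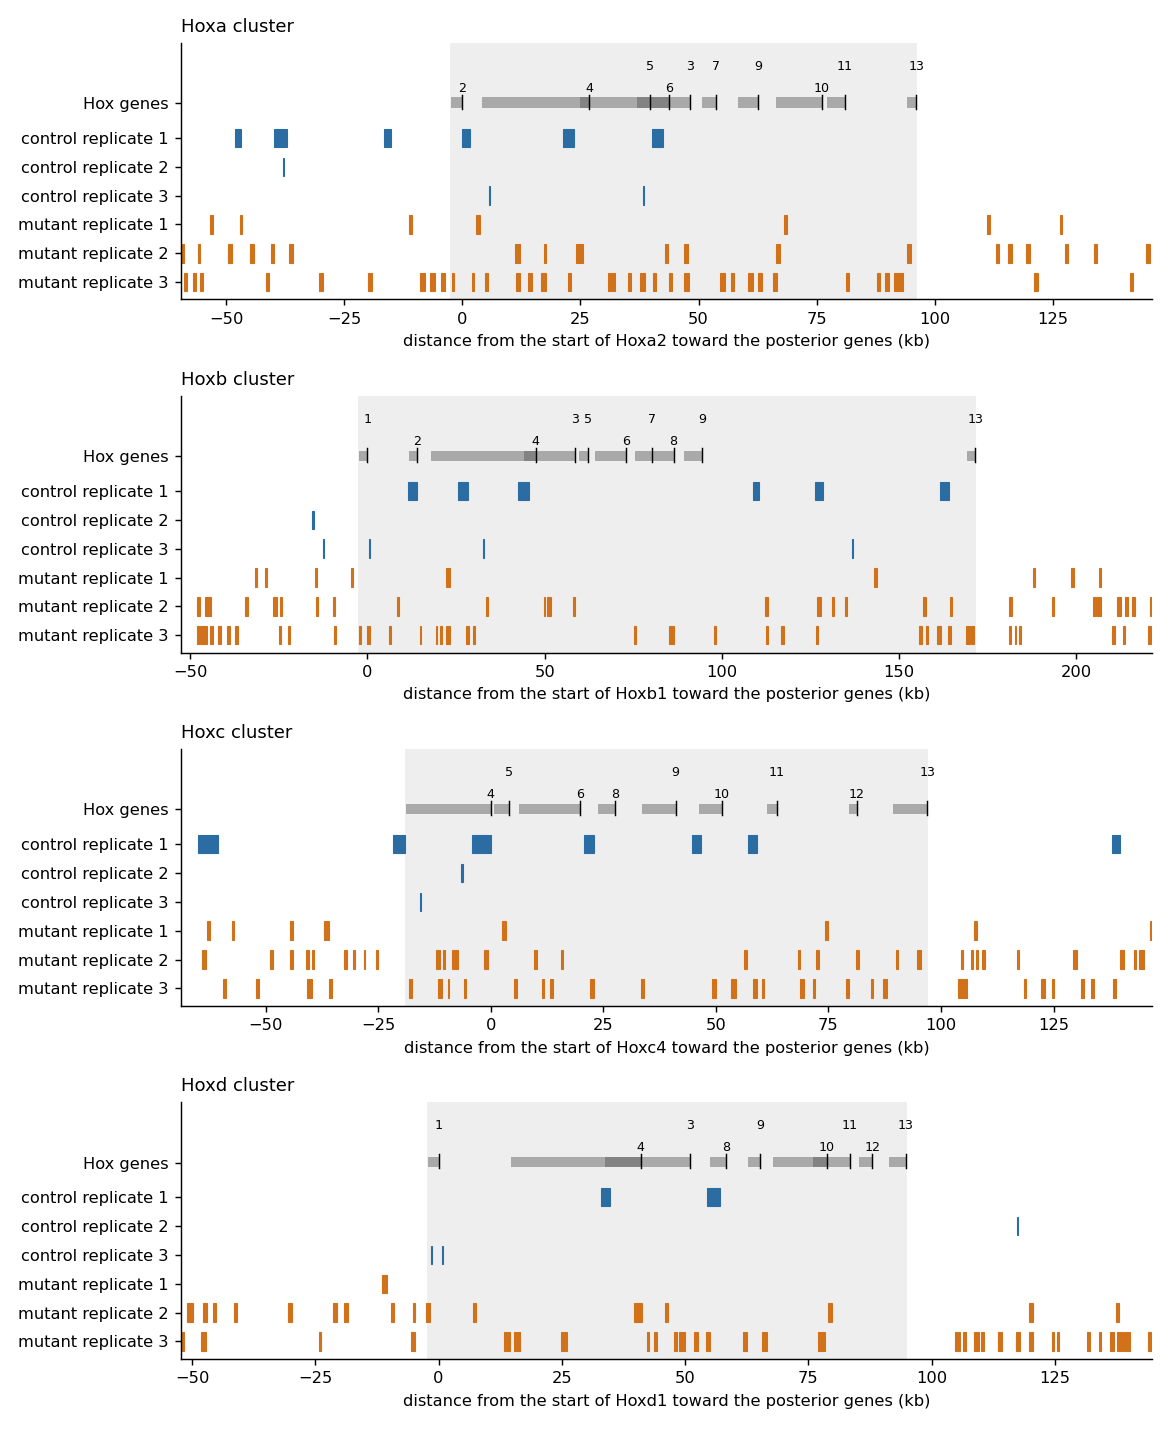
Every peak in the 4 windows, one line per library, with the position given as distance in kb from the start of the gene named on each axis toward the posterior genes; grey bars are Hox genes, darker where they overlap, ticks with numbers are gene starts labelled by paralog group, and the shaded area runs from the first to the last gene drawn. Bars of control libraries are blue and of mutant libraries orange; Hoxd12 and Hoxd13 and the sequence up to the start of Hoxd11 are free of peaks in all 6 lists.

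Between first and last genes the lists held 15, 1 and 8 peaks in the controls and 6, 36 and 77 in the mutants, and the flanks held 6, 3 and 1 and 19, 56 and 55. The density ratio between the genes was 0.938, 0.456 and 1.43 in the controls and 0.600, 0.474 and 0.811 in the mutants. In the flanks it was 0.462, 1.68 and 0.220 in the controls and 2.34, 0.908 and 0.713 in the mutants. The gene-bearing sequence exceeded its flanks in 3 lists, control replicates 1 and 3 with mutant replicate 3, and was below them in the other 3 lists. The difference averaged -0.269 (two-sided exact sign-flip permutation p = 0.625, adjusted p = 0.9, 6 libraries), was 0.025 without mutant replicate 1 and was -0.893 with lists of equal length.

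The longest stretch with no peak in any of the 6 lists lay over the posterior Hoxd genes. It ran for 24.9 kb at chr2:74658346-74683277, held all of Hoxd13 and Hoxd12 and the start of Hoxd11, and began in the flank 5′ of Hoxd13. Hoxd12 and Hoxd13, which pattern the limb and the tail end of the body, were accordingly called in none of the lists. In Hoxb the longest such stretch was 16.9 kb (chr11:96290481-96307334), over Hoxb5 and Hoxb6 and the outer start of Hoxb3. In Hoxa it was 16.1 kb (chr6:52259765-52275865), from the start of Hoxa13 outward, and a second one of 12.5 kb held Hoxa11 and the start of Hoxa10. In Hoxc it was 10.7 kb (chr15:102973390-102984057), over the start of Hoxc9. The 6 lists together left 805394 stretches between peaks in the genome, with a median of 1296 bases. Of these, 0.121% were as long as the Hoxd stretch, 0.275% as long as that in Hoxb, 0.316% as long as that in Hoxa and 1.24% as long as that in Hoxc. Stretches as long as the Hoxd one made up 5.83% of the sequence, unsequenced gaps included. These stretches were looked at after the map of peaks had been seen, and no test was made of them.

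Gene by gene, the share of Hox genes with a peak was below the share of all genes in every library with windows of 5 kb. A gene was called where a peak touched the 5 kb around either of its ends. In control replicates 1, 2 and 3, 20, 0 and 6 of 39 Hox genes were called (51.3%, 0% and 15.4%), where 58.4%, 6.65% and 16.1% of all protein-coding genes were. In mutant replicates 1, 2 and 3, 10, 24 and 35 were called (25.6%, 61.5% and 89.7%), where 32.3%, 90.2% and 91.6% of all genes were. Hox minus all genes, in percentage points, was -7.12, -6.65 and -0.753 in the controls and -6.68, -28.7 and -1.85 in the mutants, so mutant replicate 2 stood apart. It averaged -4.84 ± 3.55 in the controls and -12.4 ± 14.3 in the mutants (SD, n = 3 each), and the direction of the group difference (-7.57) turned without mutant replicate 2 (0.576). These values depend on the window: with 25 kb, Hox minus all genes was 3.34 in mutant replicate 2 and 3.67 in mutant replicate 3, and with 1 kb it was 1.49 in control replicate 3 and -25.6 in mutant replicate 2.

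Hox genes are short, which leaves less sequence to be touched. Of the 33 Hox genes of 10 kb or less, 15, 0 and 4 were called in control libraries (45.5%, 0% and 12.1%), beside 49.1%, 5.27% and 12.6% of 7893 other genes of that length. In mutant libraries 6, 18 and 29 were called (18.2%, 54.5% and 87.9%), beside 26.0%, 83.3% and 85.2%. Within this limit, the Hox share was above the other genes in mutant replicate 3 and below them in the other 5 libraries. Lengths below 10 kb were not matched.

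**Figure D3:**
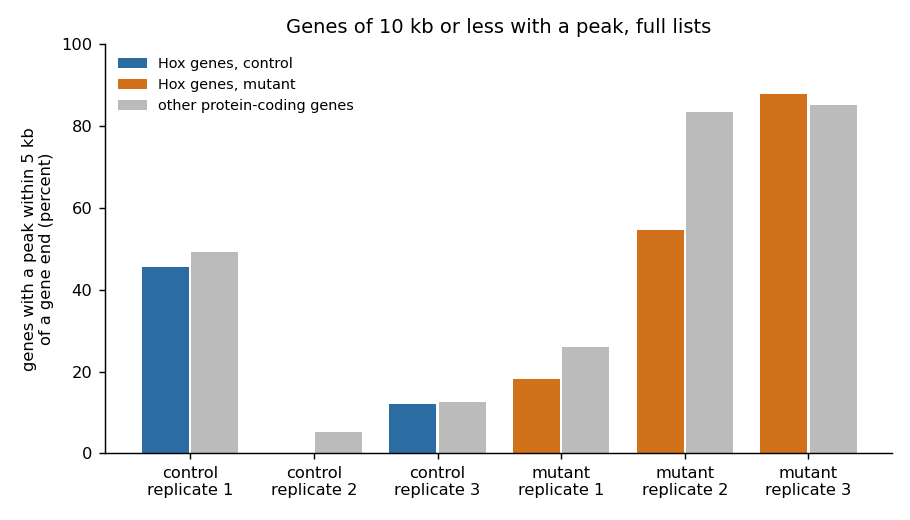
Percent of genes of 10 kb or less with a peak within 5 kb of either gene end, per library, from the full lists. Coloured bars are the 33 Hox genes (blue in control, orange in mutant) and grey bars the 7893 other protein-coding genes; the Hox bar is well below its grey bar in mutant replicate 2 (54.5% and 83.3%) and absent in control replicate 2.

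When every list was cut to its 11869 peaks of highest total signal, very few Hox genes kept a call. The counts were 2, 0 and 0 of 39 in control libraries, where 14%, 6.65% and 6.42% of all genes were called. They were 1, 0 and 0 in the mutants, where 8.13%, 7.34% and 10.4% of all genes were called. The 2 in control replicate 1 were Hoxc4 and Hoxc5, through one shared peak, and the 1 in mutant replicate 1 was Hoxb1. The other 36 of 39 Hox genes (59.0% of all genes) were called in none of these shortened lists.

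No Hox gene was called in all 6 full lists, as control replicate 2 called none. Of the 39 Hox genes, 7 (17.9%) were called in 4 or more lists, where 30.2% of all genes were. These 7 were Hoxa3, Hoxa5, Hoxa6, Hoxb3, Hoxc4, Hoxc5 and Hoxc6, of paralog groups 3 to 6. Hoxa3 and Hoxc4 were called in 5 lists (5.13% of Hox genes, 4.98% of all genes). At the other end, Hoxd12 and Hoxd13 had no call (5.13%, 4.12% of all genes).

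Calls that followed the genotype were scarce. Hoxa10 and Hoxc12 were called in all 3 mutant and no control libraries (5.13%, where 8.02% of all genes were), and 0 Hox genes in all 3 control and no mutant libraries (0.00457% of all genes). Control replicate 2 called no Hox gene, so the latter count could only be 0. Hoxa10 and Hoxc12 are posterior genes, and the share they make up is below that of all genes. A further 6 genes, Hoxa7, Hoxa9, Hoxa13, Hoxc13, Hoxd10 and Hoxd11, were called in mutant replicates 2 and 3 alone, the 2 longest lists (15.4%, 16.9% of all genes).

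**Figure D4:**
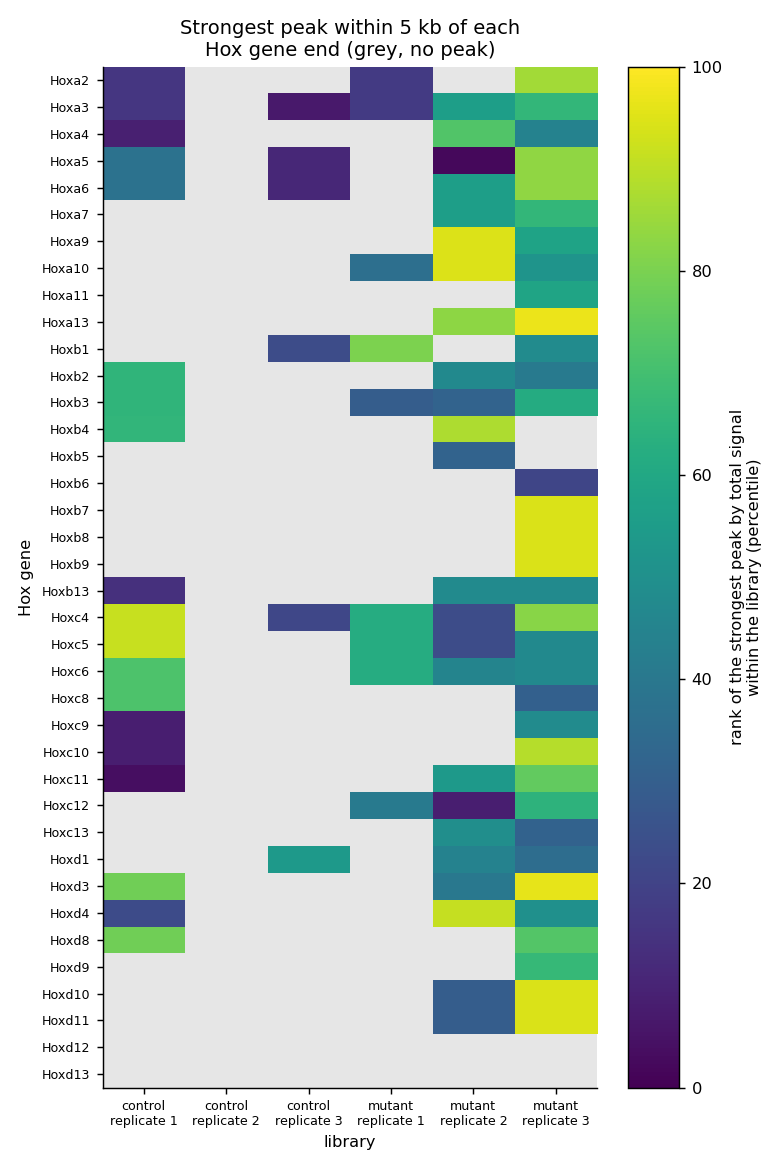
Rank, as a percentile by total signal within the library, of the strongest peak within 5 kb of either end of the Hox genes shown, in cluster and paralog order from top to bottom, with libraries as columns. Grey cells have no peak; the control replicate 2 column is grey throughout, as are Hoxd12 and Hoxd13, and in control libraries the coloured cells lie mostly in paralog groups 1 to 6.

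Along the clusters, the share of genes called was higher at the anterior side in 5 of 6 libraries. Of the 12 genes of groups 1 to 4, which act in the hindbrain, 10, 0 and 4 were called in the controls and 6, 9 and 11 in the mutants. Of the 11 genes of groups 5 to 8, which act in the neck and trunk, 6, 0 and 2 were called in the controls and 2, 6 and 10 in the mutants. Of the 16 genes of groups 9 to 13, which act toward the tail, 4, 0 and 0 were called in the controls and 2, 9 and 14 in the mutants. Among all protein-coding genes, 58.4%, 6.65% and 16.1% were called in the controls and 32.3%, 90.2% and 91.6% in the mutants. The anterior share was above that of all genes in control replicates 1 (83.3%) and 3 (33.3%) and mutant replicate 1. It was below that of all genes in control replicate 2 and mutant replicate 2, and level with it in mutant replicate 3 (91.7%). The posterior share was below that of all genes in every library. The anterior share exceeded the posterior one by 25.3 percentage points on average, and control replicate 2 had no call in either. This difference depends on the lists: it was 2.78 points with lists of equal length by total signal, 6.94 by max signal, 10.8 with the upper 50% of each list and 11.5 with windows of 1 kb. In the last pair of settings mutant replicate 3 turned to -10.4. Among genes of 10 kb or less, 6, 0 and 2 of 8 anterior genes were called in the controls and 3, 5 and 7 in the mutants. Of 15 posterior genes of that length, 4, 0 and 0 and 2, 8 and 13 were called. Neighbouring genes share peaks, so these genes are not independent of one another.

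By territory, anterior sequence had a higher peak density, relative to the library, in every control than in any mutant. The sequence between the first and last genes was divided at the midpoints between gene starts, which gave 188 kb to groups 1 to 4, 89.2 kb to groups 5 to 8 and 215 kb to groups 9 to 13. The anterior territory held 7, 1 and 6 peaks in the controls and 2, 18 and 35 in the mutants. Relative to the library's density these were ratios of 1.14, 1.19 and 2.80 in the controls and 0.522, 0.620 and 0.964 in the mutants. All 3 control libraries were above 1 and all 3 mutant libraries below it, so the groups did not overlap, at 1.71 ± 0.943 and 0.702 ± 0.232 (SD, n = 3 each). This comparison was picked after its values were seen, so a permutation p would not be a fair test of it and none is given. Control replicate 2 rests on 1 peak, the difference (-1.01) was -0.466 without control replicate 3, and it was 0.794, the opposite direction, when each list was cut to its 11869 tallest peaks.

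The central territory held 3, 0 and 1 peaks in the controls and 1, 3 and 13 in the mutants, at ratios of 1.04, 0 and 0.986 and of 0.551, 0.218 and 0.756. The posterior territory held 5, 0 and 1 peaks in the controls and 3, 15 and 29 in the mutants, at ratios of 0.717, 0 and 0.410 and of 0.688, 0.453 and 0.701. In the posterior territory all 6 libraries were below their own density. Summed over the 6 lists, paralog group 2 had the most peaks per 10 kb of territory (4.55), followed by group 3 (3.81), and groups 8 (1.21) and 7 (1.44) had the fewest. This sum is dominated by mutant replicates 2 and 3.

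**Figure D5:**
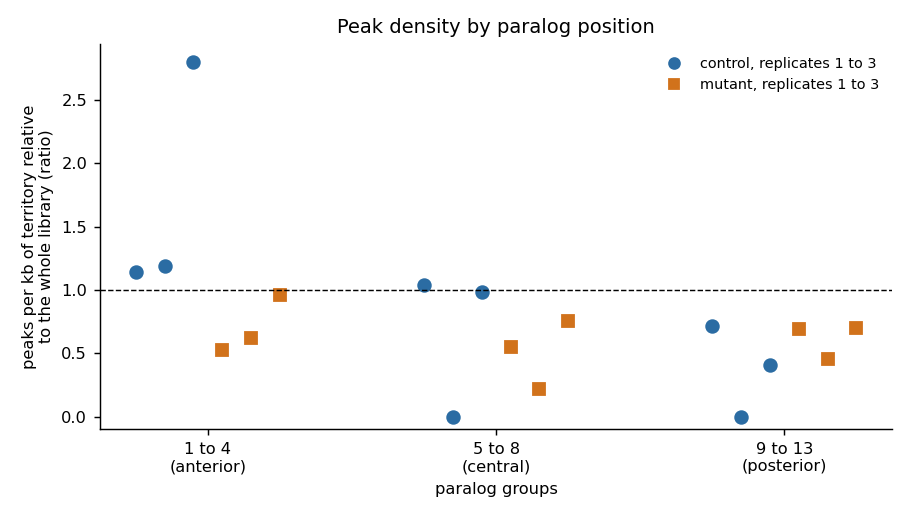
Peaks per kb in the territories of paralog groups 1 to 4, 5 to 8 and 9 to 13, divided by the density of the whole library, for control replicates (blue circles, 1 to 3 from left to right) and mutant replicates (orange squares). The dashed line is the library's own density; in groups 1 to 4 the control points are at 1.14 to 2.80 and the mutant points at 0.522 to 0.964.

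Hoxb1, switched on early by retinoic acid in the hindbrain, was called in 3 of 6 lists. Around Hoxb1 (chr11:96365746-96368254), the tallest peak had 2 steps in control replicate 3, 6 in mutant replicate 1 and 5 in mutant replicate 3, with none in the other 3 lists. The mutant replicate 1 peak lay 1.67 kb past the 3′ end, at chr11:96369923-96370337 (percentile 80.1). The peaks of control replicate 3 (chr11:96365064-96365350) and mutant replicate 3 (chr11:96365122-96365755) overlapped just upstream of the start, and the second of them reached into the Hoxb1 promoter sequence. Farther 3′, mutant replicates 2 and 3 shared a site 6.52 and 6.44 kb past the gene (chr11:96374770-96375559 and chr11:96374695-96375318, with 4 and 3 steps). Mutant replicates 1 and 2 shared another, 11.7 and 11.5 kb past it (chr11:96379934-96380563 and chr11:96379794-96380194, with 4 and 5 steps). Control libraries had no peak at either of these 2 sites. Sharing by 2 lists was common everywhere. With overlapping peaks of the 6 lists merged, 20.7% of all regions and 16.7% of those in the Hox windows came from exactly 2 lists. Mutant replicates 2 and 3 are also the longest lists, covering 12.3% and 15.7% of the sequence. Next to Hoxd1, the third member of group 1, mutant replicates 2 and 3 shared a site 2.60 and 2.66 kb past the 3′ end (chr2:74767742-74768168 and chr2:74767803-74768648, with 6 and 4 steps), and control replicate 3 had 2 peaks of 2 steps at the gene.

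In group 2, Hoxa2, which patterns the hindbrain and its nerves, had an 11-step peak in control replicate 1, at chr6:52164738-52166425. Its rank was low (percentile 15.8), and the median height in that list was 10 steps. The peak covers the Hoxa2 start and the Hoxa2 promoter sequence given above. Hoxa2 was also called in mutant replicates 1 and 3, and in no other list.

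In group 3, Hoxa3, which patterns neck organs and hindbrain nerves, was called in 5 of 6 lists, with tallest peaks of 11 and 2 steps in control replicates 1 and 3 and of 3, 4 and 6 steps in mutant replicates 1, 2 and 3. Its RefSeq span (chr6:52169059-52213067) covers Hoxa4, Hoxa5 and Hoxa6, but peaks count toward its call within 5 kb of its ends alone, and the one in control replicate 1 lies at the start of Hoxa2. Inside the span, away from both ends, mutant replicates 2 and 3 overlapped at chr6:52176009-52177032 and chr6:52176231-52176955, with 4 and 7 steps (percentiles 85.3 and 85.8). These are the 2 longest lists. Inside Hoxd3, mutant replicate 3 had a peak of high rank at chr2:74712988-74714192 (9 steps, percentile 96.4), where no other list had one.

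The group 4 genes Hoxa4, Hoxb4, Hoxc4 and Hoxd4, which set the hindbrain to neck border, all had a peak in control replicate 1. The tallest had 8, 10, 11 and 11 steps, in a list with a median of 10. Their best percentiles were 8.70, 65.7, 91.5 and 22.7. A step is a unit of its own library, so heights are not compared between lists. Control replicate 2 called none of them and control replicate 3 called Hoxc4 alone (2 steps). In mutant replicate 2 all 4 were called, with 3, 5, 3 and 9 steps and best percentiles of 72.9, 87.8, 23.3 and 91.1. Mutant replicate 1 called Hoxc4 alone (4 steps), and mutant replicate 3 called Hoxa4, Hoxc4 and Hoxd4 (5, 6 and 5 steps).

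Hoxd4 (chr2:74721978-74729160) held the tallest Hox peak of mutant replicate 2, at chr2:74722625-74723260 (9 steps, percentile 91.1), with its centre 964 bases into the gene. A second, lower peak of that library (chr2:74721733-74722523, 3 steps) covered the start and all but the first bases of the promoter sequence with its AGGTCA half-site. Control replicate 1 had its peak at the other end of Hoxd4 (chr2:74728311-74729948, 11 steps), and mutant replicate 3 had 2 peaks upstream of the start. The peaks described here thus lay at different places in the 3 libraries. Mutant replicate 2 had 3 peaks counted at Hoxd4, and not all of them are placed here.

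Hoxc4 (chr15:103018097-103036856) had the Hox gene peak of highest rank in control replicate 1, at chr15:103018137-103022337 (11 steps, percentile 91.5). It begins at the start of the gene and lies within 5 kb of the 3′ end of Hoxc5. Control replicates 2 and 3 also had a peak inside Hoxc4, at chr15:103024393-103024625 (3 steps) and chr15:103033700-103033888 (2 steps), so Hoxc4 had a peak in its body in all 3 control libraries, but at 3 separate places. The peak of control replicate 2 was over 5 kb from both ends and gave no call.

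In groups 5 and 6, which act in the neck and chest, Hoxa5 and Hoxa6 shared peaks of 9 and 2 steps in control replicates 1 and 3. In mutant replicates 2 and 3 the tallest peaks had 3 and 5 steps at Hoxa5 and 4 and 5 steps at Hoxa6, and mutant replicate 1 had none at either. Hoxb5 (chr11:96303512-96306121) was called in mutant replicate 2 alone, with 4 steps (percentile 31.9). Hoxc5 and Hoxc6 were called in control replicate 1 (11 and 10 steps) and in all 3 mutant libraries (4, 3 and 4 steps at Hoxc5 and 4 steps each at Hoxc6). Beyond group 6, control calls were few: Hoxc8, Hoxc9, Hoxc10, Hoxc11, Hoxd8 and Hoxb13 in control replicate 1, and none in control replicates 2 and 3.

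Sites seldom recurred between libraries. Overlapping peaks of the 6 lists were merged into 805693 regions, of which 234 lay in the Hox windows. Of these 234, 4 (1.71%) were called in 3 or more lists, where 5.25% of all regions were, and 0 in 4 or more, where 0.581% were. The 4 regions held no Hox gene start. Of them, 2 lay between Hoxb13 and Hoxb9, at chr11:96200750-96205090 and chr11:96237166-96239451, both from control replicate 1 and mutant replicates 2 and 3, with 7, 4 and 4 and with 12, 4 and 8 steps. Another lay in the Hoxc flank, at chr15:103078737-103083163, from control replicate 1 and mutant replicates 1 and 2 (10, 5 and 4 steps). The last lay in the Hoxa flank, at chr6:52124351-52127733, from control replicates 1 and 2 and mutant replicate 2 (9, 2 and 4 steps). Across the genome 7 regions were called in all 6 lists, and 0 of them lay in a Hox window.

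Among peaks with a midpoint in the windows, those touching the 1 kb on either side of a Hox start were counted. They numbered 5 of 21, 0 of 4 and 2 of 9 in the controls. In the mutants they numbered 1 of 25, 8 of 92 and 15 of 132. Peak width enters this count, and control replicate 1 had the widest peaks. The same share was not taken over all genes, so these counts are not read as high or low. The promoter windows touched, 1, 0 and 0 of 24 in the controls and 0, 1 and 4 of 24 in the mutants, compare with 14.2%, 0.216%, 0.320%, 2.05%, 14.4% and 32.8% of all promoter windows in the same order of libraries. Hox windows had a median of 14.5 CpG against 13 over all windows. Among the 12512 other windows with 9 or more CpG, the touched share was 16.8% in control replicate 1, 13.2% in mutant replicate 2 and 41.7% in mutant replicate 3. The 4.17% (1 of 24), 4.17% (1 of 24) and 16.7% (4 of 24) of Hox windows in these 3 libraries were lower, but the sets were not matched. Windows with 9 or more CpG had a median of 22 CpG. The 24 Hox windows were not held to that limit, and the touched windows of Hoxd4 and Hoxa9 had 4 CpG each. At the miRNA genes, control replicate 1 had a 7-step peak over Mir196a-2 (chr15:102973365-102973386), mutant replicate 1 a 4-step peak over Mir615, which lies inside Hoxc5, and mutant replicate 3 a 3-step peak within 1 kb of Mir196b.

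Related genes are given for comparison, beside 58.4%, 6.65% and 16.1% of all genes called in the controls and 32.3%, 90.2% and 91.6% in the mutants. Of 9 Hox cofactor genes (the Pbx, Meis and Pknox families, whose proteins bind DNA with Hox proteins), 2, 1 and 2 were called in the controls and 1, 9 and 8 in the mutants. Of 9 forebrain homeobox genes such as Emx2, Otx2 and Pax6, 4, 0 and 1 were called in the controls and 2, 8 and 9 in the mutants. Of 18 retinoic acid pathway genes, 10, 0 and 2 were called in the controls and 7, 16 and 18 in the mutants. Mutant replicate 2, with 24 of 39 Hox genes called, thus had 9 of 9, 8 of 9 and 16 of 18 of these lists called. Lists of loci that mark cell types show nothing of expression here: 4, 0, 0, 4, 9 and 9 of 9 neural progenitor loci, 3, 0, 1, 3, 5 and 6 of 6 meningeal loci, 1, 0, 0, 2, 3 and 2 of 4 vessel loci and 1, 1, 0, 1, 4 and 4 of 4 blood and microglia loci were called, in the order of control then mutant replicates. Of the other protein-coding genes in the windows, Ttll6 was called in control replicate 1 and mutant replicates 1 and 2, and Evx2 in mutant replicate 3.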

How the data were processed

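CUT&RUN for the Myc tag was analysed in 6 libraries, grouped by their titles. The authors called peaks with SEACR on mm10, per the submitters' processing notes, and further steps are not stated in the sources used here. Peaks were called by library. The deposited signal columns (total and max) have no stated scaling. Max signals were whole multiples, within 0.01, of a step per library, so signal served only to rank peaks and to give heights. Read depth is unknown, so a missing peak does not show absence of binding.

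Gene spans, promoters and miRNAs came from RefSeq (GRCm38.p6), and 0 or 1 peak per library off the 21 chromosomes was left out. Density used midpoints over the 2661 Mb between each chromosome's first and last peak, unsequenced gaps included. Tiles replaced random windows. Groups were compared by exact permutation over 20 assignments, and libraries by sign-flips over 64 (smallest p 0.03125), with Benjamini-Hochberg adjustment. No p is given for gene lists. A limma fit of regions in all 6 lists was not run, since 0 lay in a Hox window. Genome sequence was not used here, so peaks were not searched for response elements. Named in every library were Hoxb1, Hoxa4, Hoxb4, Hoxd4 and Hoxb5, then genes by number of lists and rank, up to 12, of which 1 gene is not reported here by name; other genes and single peaks were picked after their values were seen. Members and lists were chosen with earlier results of these data known. Alternatives were flank, window and list cuts, gene-dense tiles and leaving out each library. Scripts (Python 3.11.15, numpy 2.4.6, pandas 2.3.3) were tested on simulated data.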

Additional observations from a re-analysis of the deposited data

Results flagged for a closer look

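The peak density of the anterior territory, that of paralog groups 1 to 4, relative to the whole library lay above 1 in all 3 control libraries (1.14, 1.19 and 2.80) and below 1 in all 3 mutant libraries (0.522, 0.620 and 0.964), a difference of -1.01. It was picked out because the 2 genotypes lay on opposite sides of their library's own density. The difference was seen in the data first, so a permutation p would not be a fair test of it and none is given. It rests on 7, 1 and 6 peaks in the controls and 2, 18 and 35 in the mutants.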

How the results depend on the processing

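Over the alternatives, exact p ranged from 0.3 to 1 for the density ratio, 0.3 to 0.9 for the covered share, 0.09375 to 1 for windows against the genome and 0.125 to 0.9375 for genes against flanks; the first pair cannot go below 0.1. The mutant minus control density ratio (0.0657) was -0.313 without flanks and ranged from -0.155 to 0.2004 when one library was left out, turning without control replicate 1 (-0.0082) and without mutant replicate 1 (-0.155). It moved most, to 0.838, with lists of equal length ranked by max signal, and was 0.251 with those ranked by total signal. The covered share ratio (0.0959) was -0.175 without flanks, 0.701 with lists of equal length by max signal and -0.117 to 0.234 without one library. The gene call difference (-7.57 percentage points) was 3.82 with lists of equal length ranked by max signal and 6.51 with windows of 25 kb, and ranged from -12.9 to 0.576. Gene-bearing sequence minus flanks ranged from -0.564 to 0.025 without one library, and was -0.893 and -0.870 with lists of equal length by total and max signal. The anterior territory difference (-1.01) was -0.794 with lists of equal length by total signal, 0.794 by max signal and -1.16 without the starts of group 3, whose gene spans are long, and ranged from -1.29 to -0.466. The cause of these turns was not tested. Windows against the genome (-0.189 to -0.0475) and anterior against posterior calls (18.8 to 30.4 percentage points) kept their direction without any one library, but the second fell to 2.78 and 6.94 with lists of equal length by total and max signal, 10.8 with the upper 50% of each list and 11.5 with windows of 1 kb.

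Replicate numbers did not pair the libraries: the correlations of peak density over 2650 tiles of 1 Mb were -0.34, -0.143 and -0.202 for equal numbers. With the replicate number as a block the differences, 0.0657, 0.0959, -7.57 and -1.01, cannot change, because every block pairs a control with a mutant library. That setting is therefore no check on their size. The 4 peaks of control replicate 2 and 9 of control replicate 3 limit every statement on those lists.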
